A study of Mus musculus with 24 samples.

Results

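A family of 5 related microRNAs (miRNAs) was followed in the inner lining of the mouse carotid artery: miR-99a, miR-99b, miR-100, miR-125a-5p and miR-125b-5p. They were chosen by name among 655 probes of an Illumina bead array, and all 5 had a probe. The mice were male C57Bl6 animals of 6 to 8 weeks whose left carotid had been partially ligated, so that its flow was low and oscillated. The groups were the ligated left carotid at 48 h, the right carotid of operated mice at 48 h, the ligated left carotid at 12 h and the right carotid of operated mice at 12 h, with 6 arrays each. No allele or agent was named, and no group held arteries of unoperated or sham-operated mice, so flow, surgery and side of the body cannot be told apart. The labels do not say whether arrays came from separate animals or pools, so p-values refer to the spread among samples, part of which may be technical.

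miRNAs are short RNAs that bind messenger RNAs mainly through a seed near their 5′ end, and they lower the output of those messages. miR-99 and miR-100 are known to act on the growth kinase mTOR and on the insulin-like growth factor receptor. miR-125a-5p and miR-125b-5p have been linked to control of the vasoconstrictor endothelin-1 in cultured vascular endothelium. Copies of these miRNAs lie in genomic clusters with members of the let-7 family, which restrains proliferation.

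The mature sequences are shown because the family is defined by 2 seeds and because some members differ at very few bases. Capitals mark the seed, bases 2 to 8. The sequences are those of RefSeq on GRCm38.p6, and all 5 matched the target sequences given for the array's probes.
miR-99a: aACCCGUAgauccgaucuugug
miR-99b: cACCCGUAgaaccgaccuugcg
miR-100: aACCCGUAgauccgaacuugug
miR-125a-5p: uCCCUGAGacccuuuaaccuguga
miR-125b-5p: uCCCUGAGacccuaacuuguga

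The first 3 share the seed ACCCGUA and the other two the seed CCCUGAG. In RefSeq's table, 3 mature mouse miRNAs hold the first seed and 5 hold the second, among 1679 names. miR-99a and miR-100 differ at 1 base (U16A, counted from the 5′ end, miR-99a first), and miR-99a and miR-99b at 4 (A1C, U11A, U16C and U21C). miR-125a-5p and miR-125b-5p share their first 13 bases.

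RefSeq places miR-99a on chromosome 16 (77598940 to 77598961, plus strand), 732 bases before let-7c of the Mirlet7c-1 gene and 47339 before Mir125b-2. No other gene of the RefSeq table encloses it. miR-100 lies on chromosome 9 (41531437 to 41531458, plus strand) within the noncoding gene Mir100hg, 5340 bases before Mirlet7a-2 and 50503 before Mir125b-1. miR-99b lies on chromosome 17 (17830194 to 17830215, plus strand) within Spaca6, 172 bases before let-7e and 623 before miR-125a. miR-125b-5p can come from either of its copies, at 41581940 to 41581961 on chromosome 9 or 77646279 to 77646300 on chromosome 16, both on the plus strand, and the array cannot tell them apart.

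Arrays detected between 335 and 431 of the 655 probes. At 12 h the arrays of either artery matched in pairs (1 with 4, 2 with 5, 3 with 6), with rank correlations of at least 0.986, against at most 0.874 for other pairs within a group. Each such pair was counted as 1 sample, so that n = 3 per artery at 12 h and n = 6 at 48 h. Right sample 1 at 12 h and right samples 3 and 5 at 48 h ranked closer to the left samples of their time than to the other right ones. They were kept under their labels, and values without them are given beside the miR-99b and miR-99a results. The endothelial miR-126-3p was detected on all 24 arrays, with raw signals of 315 to 8236 in left and 264 to 621 in right carotids at 48 h, and 19333 to 22594 and 20672 to 23267 at 12 h. Its partner strand miR-126-5p was also detected on all 24, with raw medians of 10886 in left and 21495.5 in right carotids at 48 h. At 48 h the log2 change was 1.86 ± 0.87 SE for miR-126-3p and -0.63 ± 0.51 SE for miR-126-5p, and neither passed (limma adjusted p = 0.272 and 0.533). The miRNAs of smooth muscle, miR-143 and miR-145, the leukocyte miR-223 and the erythroid miR-451 and miR-486 were likewise detected on every array. In such bulk samples, fewer cells of a type and less RNA per cell cannot be told apart.

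**Figure D1:**
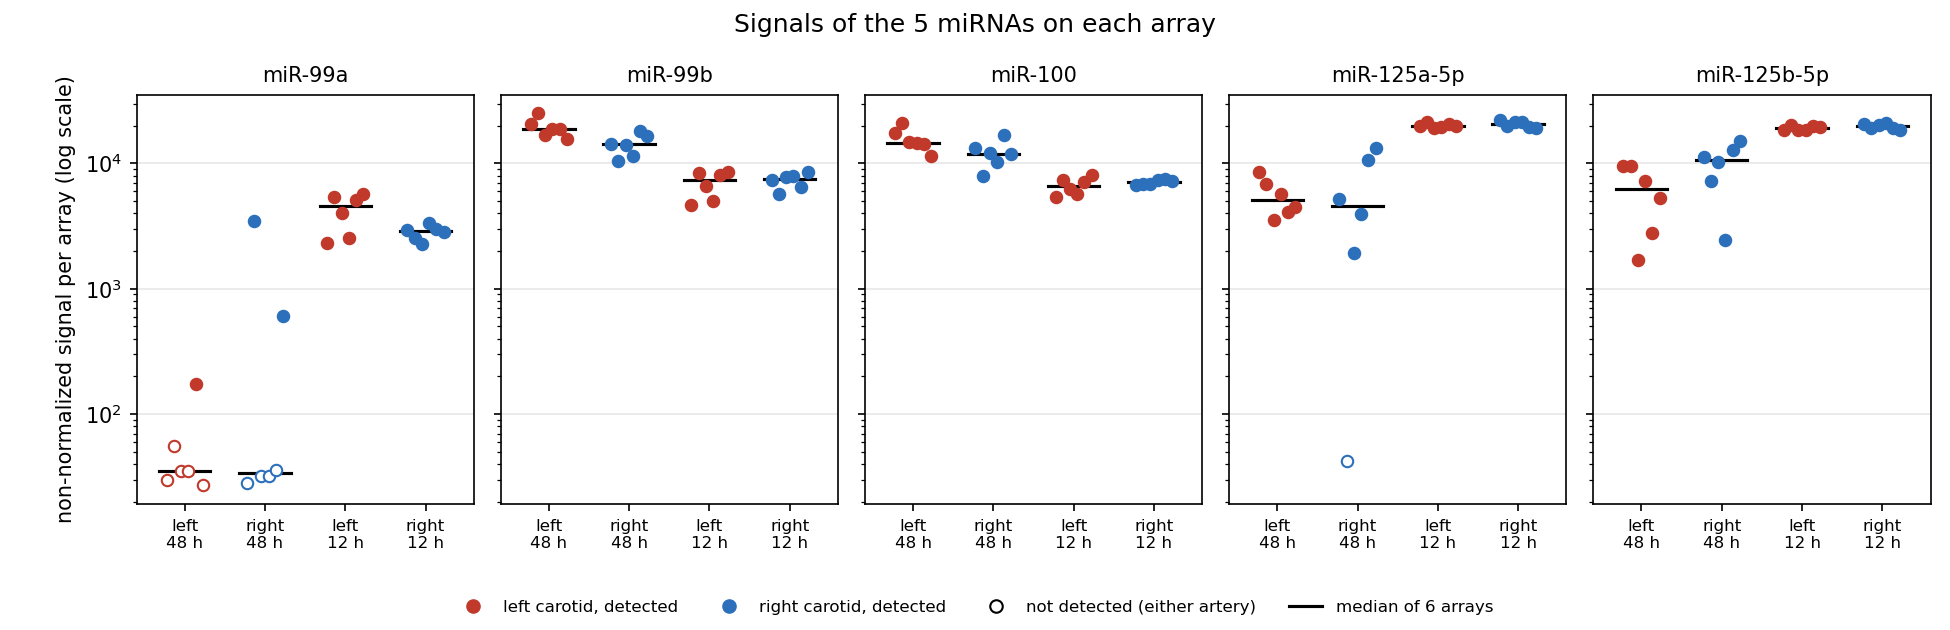
Non-normalized signal (log axis) of the 5 miRNAs on each of the 24 arrays, by artery (left carotid red, right carotid blue) and time; open points are arrays on which the probe was not detected and bars are medians of 6 arrays. miR-99a is open on 9 of 12 arrays at 48 h and filled on all 12 at 12 h, while miR-99b and miR-100 are filled on all 24.

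The members differed sharply in how they were detected at 48 h. miR-99b, miR-100 and miR-125b-5p were detected on all 12 arrays (detection p under 0.05), miR-125a-5p on all but right array 2, and miR-99a on 3. The raw miR-99a signal read 30, 56, 35, 35, 175 and 27 on left arrays 1 to 6, against 28, 3455, 32, 32, 36 and 606 on right arrays 1 to 6. Left array 5 and right arrays 2 and 6 were the ones that detected it, and the groups overlapped. At 12 h miR-99a was detected on all arrays, at 2319 to 5724 in left carotids and 2270 to 3359 in right carotids.

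The probes of miR-99a and miR-100 are shown because their targets differ at 1 base, in capitals here, and their signals did not move together at 48 h. Both are written as the array file gives them.
miR-99a probe: cccgtagatccgaTctt
miR-100 probe: acccgtagatccgaActtg

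On the 9 arrays at 48 h that did not detect miR-99a, its probe read 27 to 56 while the miR-100 probe read 10208 to 20954. The miR-99a probe thus gave no detectable signal in the presence of a strong miR-100 signal. A reading of miR-100 targets by the miR-99a probe at 12 h was not tested.

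At 48 h, 1 of the 4 members tested, miR-99b, was higher in the ligated left carotid and none were lower (limma with Benjamini-Hochberg adjustment over all probes). The background was 12 of 407 tested probes, 2.95%, with 1.97% higher and 0.983% lower. miR-99a was not tested, since it was detected on fewer than 3 arrays of each group. The member calls were already known when the family was chosen, so these counts are a description of it. The 4 tested members had a median log2 change of 0.36, against -0.00 over all tested probes, and ran from -0.83 to 1.14. The highest value, that of miR-125a-5p, fell to -0.07 without right sample 2, which did not detect it. With each array scaled to its 75th percentile, the median over all tested probes was 0.32. The median of 0.36 therefore shows no rise of the family as a whole.

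For miR-99b, normalized log2 signals in the left samples 1 to 6 were 14.06, 14.43, 13.98, 14.12, 14.20 and 14.16. In the right samples 1 to 6 they were 13.88, 13.55, 13.79, 13.94, 13.82 and 13.82. After normalization every left sample lay above every right one. Raw signals overlapped, at 15665 to 25174 in left and 10499 to 18050 in right carotids. The highest signal of any probe on an array was 27805 to 31933 in left and 25158 to 28980 in right carotids. Quantile normalization ties the value of such a bright probe to its rank, so the separation and its SE hold for normalized values only. The normalized means were 14.16 ± 0.16 in left and 13.80 ± 0.13 in right carotids (SD, n = 6 each), a log2 change of 0.36 ± 0.09 SE or 1.28-fold (limma adjusted p = 0.0432). The adjusted p lay between 0.0360 and 0.104 with 1 sample left out, and stayed under 0.05 in 2 of these 12 fits, those without left sample 3 or right sample 4. Without right sample 3 it was 0.0703 and without right sample 5 it was 0.0624, at log2 changes of 0.36 and 0.38 (limma). Without a trend on intensity in the fit it was 0.244.

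miR-100, which shares the miR-99b seed, read 13.82, 14.12, 13.82, 13.79, 13.88 and 13.88 in left samples 1 to 6. Its right samples 1 to 6 read 13.73, 13.03, 13.62, 13.76, 13.67 and 13.30, so that all 6 left samples again lay above all right ones. The raw miR-100 signals overlapped, at 11382 to 20954 in left and 7917 to 16769 in right carotids. The normalized means were 13.88 ± 0.12 and 13.52 ± 0.29 (SD, n = 6 each), a log2 change of 0.37 ± 0.13 SE, which did not pass (limma adjusted p = 0.137). Groups that do not overlap, with left above right, were found for 3.19% of the tested probes, with left below right for 1.47% and either way for 4.67%.

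The size of these changes depended on the scaling of the arrays. Scaling each array to its 75th percentile, in place of quantile normalization, moved the median log2 change of all tested probes to 0.32. Under it miR-99b stood at 0.42 (limma adjusted p = 0.127) and miR-100 at 0.35, which is 0.10 and 0.03 above that median.

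Of the seed pair miR-125a-5p and miR-125b-5p, neither passed, and their values ran in opposite directions. miR-125a-5p read 12.80, 12.82, 11.80, 12.22, 12.06 and 12.46 in left samples 1 to 6, against 12.45, 5.15, 10.78, 12.38, 13.06 and 13.47 in right samples 1 to 6. Right sample 2 stood far below the rest, with a raw signal of 42 and no detection, on an array where miR-99b of the same cluster was detected. The log2 change was 1.14 ± 1.19 SE (limma adjusted p = 0.649), and without right sample 2 it was -0.07 (adjusted p = 0.950).

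miR-125b-5p read 12.98, 13.19, 11.00, 12.63, 11.45 and 12.72 in left samples 1 to 6. Its right samples 1 to 6 read 13.62, 12.95, 13.37, 12.06, 13.30 and 13.67. Left samples 3 and 5 and right sample 4 were the lowest of their groups, which overlapped. The means were 12.33 ± 0.89 and 13.16 ± 0.60 (SD, n = 6 each), a log2 change of -0.83 ± 0.41 SE (limma adjusted p = 0.299). Leaving out 1 sample gave values between -1.04 and -0.57, none of which passed.

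**Figure D2:**
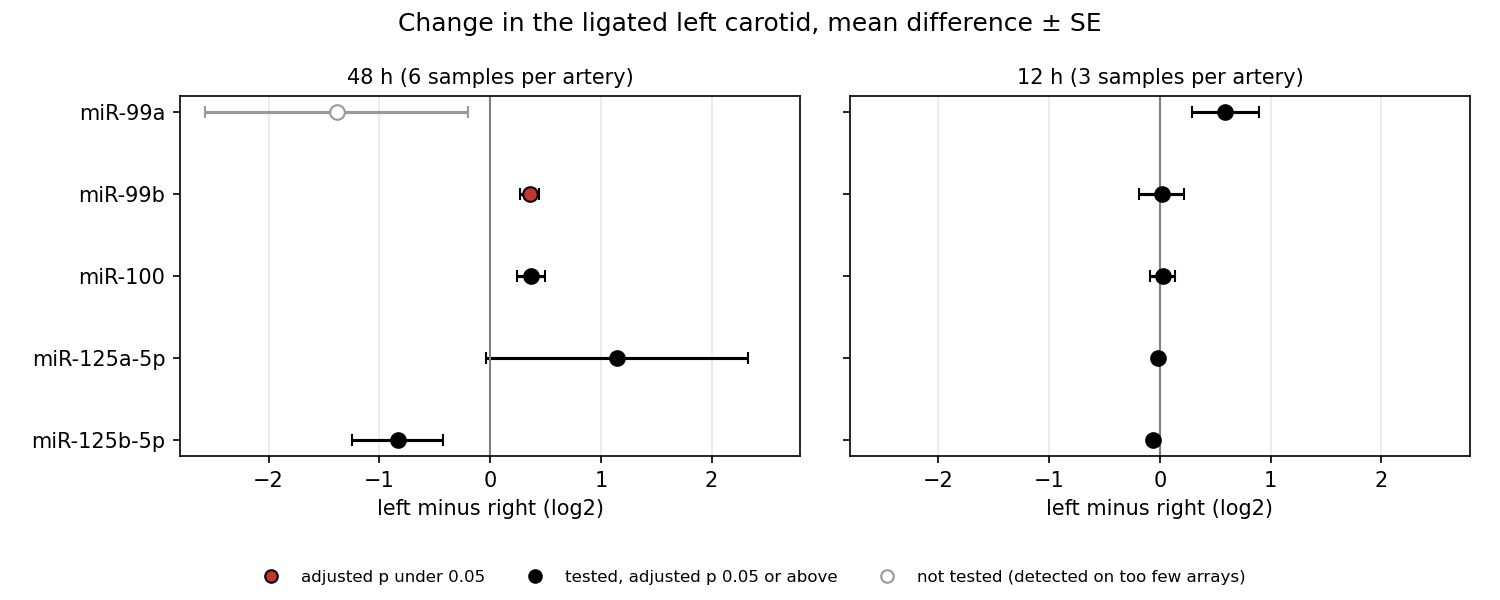
Difference of the left minus the right carotid in mean normalized log2 signal (x axis) for each miRNA (rows), with bars of 1 SE, at 48 h (left panel, 6 samples per artery) and 12 h (right panel, 3 samples per artery). The red point, miR-99b at 48 h, is the one with a limma adjusted p under 0.05, and the open grey point, miR-99a at 48 h, was not tested and sets mostly background readings against each other, so it is no measured change.

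At 12 h, 0 of the 5 members passed (limma; 1 had an unadjusted p under 0.05), against a background of 0.465% of 430 probes. miR-99a read 11.48, 12.31 and 12.18 in left samples 1 to 3, against 11.55, 11.25 and 11.40 in right samples 1 to 3. Left sample 1 fell within the right range and the other two lay above it. The log2 change was 0.59 ± 0.30 SE (limma adjusted p = 0.497), between 0.45 and 0.85 with 1 sample left out and 0.66 without right sample 1.

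miR-125b-5p was the member whose groups did not overlap at 12 h, at 14.18, 14.20 and 14.22 in left samples, against 14.26, 14.25 and 14.26 in right samples. In 19.1% of all tested probes the groups did not overlap, with left above right in 6.05% and below in 13%. The log2 change was -0.06 ± 0.02 SE (limma adjusted p = 0.435), and under 75th percentile scaling it was 0.06. The values of miR-99b, miR-100 and miR-125a-5p lay between -0.02 and 0.02, with adjusted p between 0.788 and 0.975. miR-125a-5p and miR-125b-5p had raw signals of 18389 to 22006 at 12 h, where the highest signal of any probe on an array was 21958 to 25770. Among such bright probes, quantile normalization ties a value to its rank, so their small errors say little about how steady the miRNAs were.

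Whether the left-right change differed between 48 h and 12 h was tested as a contrast over all samples. Of the 4 members other than miR-99a, 0 passed (limma; 0 had an unadjusted p under 0.05), against 0.211% of 474 probes. miR-99a entered the fit through its 12 h signals alone, and since 9 of its 12 readings at 48 h were at background, no value is given for it. The difference, 48 h minus 12 h, was 0.34 ± 0.19 SE for miR-99b, 0.34 ± 0.20 SE for miR-100 and -0.78 ± 0.61 SE for miR-125b-5p on the log2 scale. For miR-125a-5p it was 1.17 ± 1.76 SE. Adjusted p ranged from 0.564 to 0.826. A call at 48 h and none at 12 h is therefore not shown to be a difference between the times.

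The members were then compared with each other through the log2 ratio of their signals within a sample, which gives 10 pairs at each time. The 4 pairs with miR-99a at 48 h rest on background readings and say nothing about that miRNA. None of the 20 ratios differed between the arteries after adjustment over the 20 (two-sided exact permutation tests; the smallest possible unadjusted p is 0.00216 at 48 h and 0.100 at 12 h). The 10 ratios at 12 h could therefore not pass, and their failure says nothing about the arteries. In 3 of these 10 the arteries did not overlap, and the unadjusted p was the smallest possible. The ratios at 12 h and those with miR-99a at 48 h still count in the adjustment of the others. At 48 h the ratio of miR-99b to miR-100 was 0.27 ± 0.07 in left and 0.28 ± 0.19 in right carotids (SD, n = 6 each), a difference of -0.01 (exact permutation p = 0.894). A p of this size does not show that the 2 miRNAs changed alike.

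The ratio of miR-99b to miR-125b-5p was 1.83 ± 0.82 in left and 0.64 ± 0.63 in right carotids (SD, n = 6 each), and 6 of 6 left samples lay above the right mean. Its difference of 1.19 had an exact permutation p of 0.0152, or 0.238 adjusted. For miR-100 to miR-125b-5p the difference was 1.20, again with 6 of 6 left samples above the right mean (exact permutation p = 0.0238, adjusted 0.238). Without right sample 4, in which miR-125b-5p was lowest among right samples, the arteries no longer overlapped in either ratio. The differences were then 1.42 and 1.45 (exact permutation p = 0.00433 and adjusted p = 0.0433 for both). Of 18 runs with 1 sample left out, this was the 1 in which any ratio passed. Both ratios contain miR-125b-5p, so they are not independent results. For miR-125a-5p to miR-125b-5p the difference was 1.98 (exact permutation p = 0.0714, adjusted 0.333), and it was 0.80 without right sample 2.

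**Figure D3:**
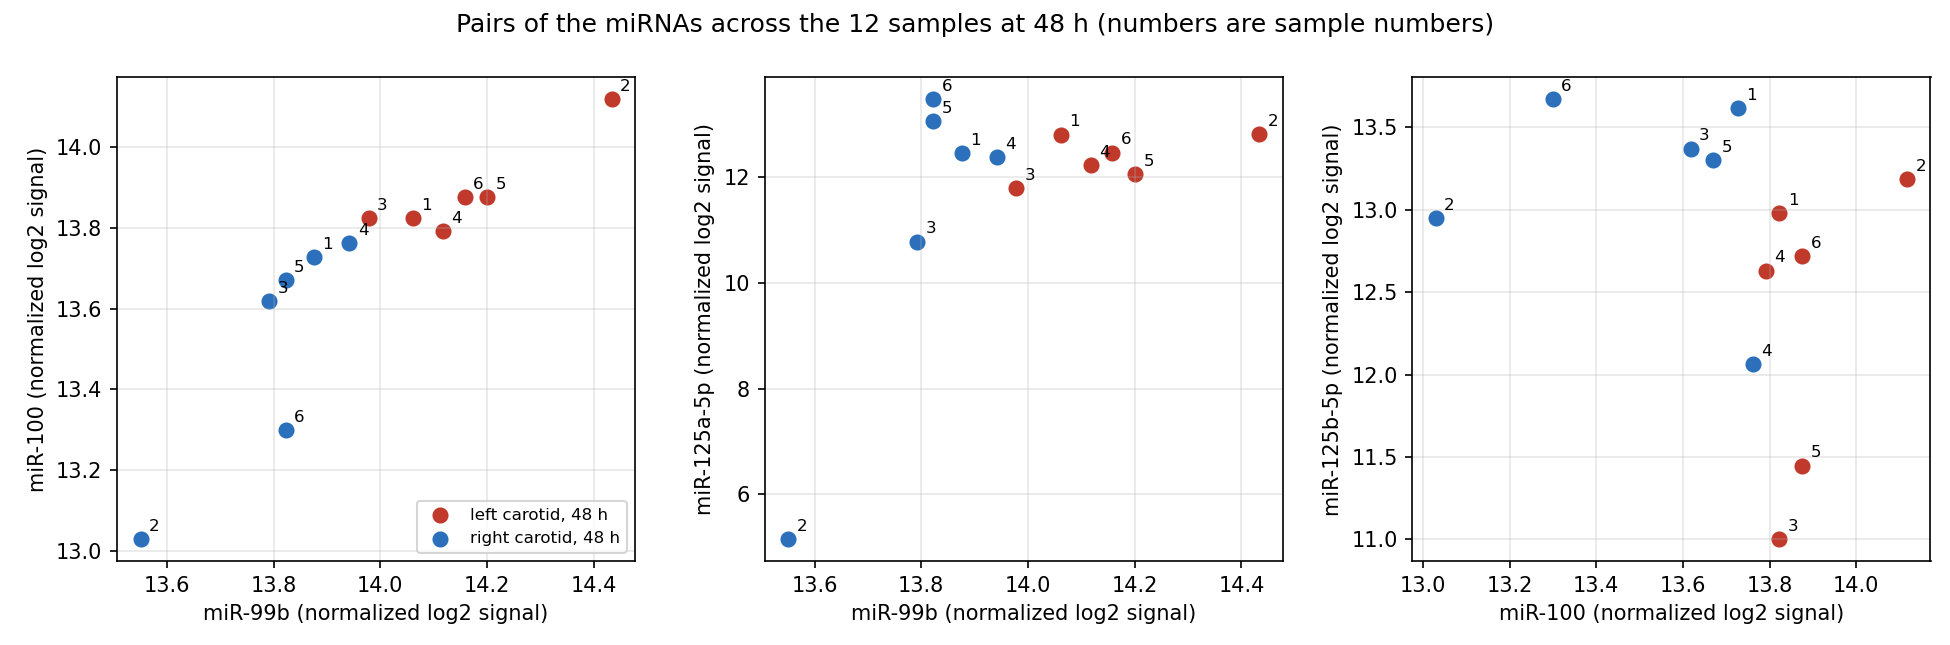
Normalized log2 signals of 3 pairs of the miRNAs in the 12 samples at 48 h, left carotid in red and right carotid in blue, with sample numbers; the axes of the panels differ in range. In the first panel the left samples lie above the right ones on both axes, and in the second right sample 2 lies at 5.15 for miR-125a-5p, far below the other 11.

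Variation among samples was described within each time after each group's mean was removed. At 48 h, over 12 samples, which share the normalization, Pearson's r was 0.791 for miR-99b with miR-100 (Spearman's rho 0.791) and 0.636 for miR-99b with its cluster neighbour miR-125a-5p (rho 0.655). For miR-125a-5p with miR-125b-5p r was 0.214 (rho 0.476), and for miR-100 with miR-125b-5p it was 0.048 (rho 0.018). In right sample 2 miR-125a-5p was not detected (5.15), and miR-99b was at its lowest (13.55). The values for miR-125a-5p at 48 h include this sample, and none without it were computed, so they do not show that the cluster neighbours varied together. The miR-125b-5p signal can come from the chromosome 9 copy near miR-100 or from the chromosome 16 copy. At 12 h, over 6 samples, the same pairs had r of 0.341, 0.943, 0.450 and 0.597, so their order differed between the times. miR-99a gave -0.872 with miR-100 at 48 h (rho -0.649) and 0.541 at 12 h. Right sample 2 was the extreme point at 48 h, at 12.06 for miR-99a and 13.03 for miR-100, while most other miR-99a readings were background.

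Among 253 other probes detected on all 12 arrays at 48 h, the profile most like that of miR-99b was miR-30a's (r = 0.805 over 12 samples at 48 h, and 0.915 over 6 at 12 h), followed by miR-466h (0.673 at 48 h, -0.692 at 12 h). For miR-125b-5p they were let-7d (0.734 and 0.920) and miR-26b (0.731 and 0.004). miR-100 was nearest to miR-466c-5p (0.680 and -0.548) and miR-30a (0.647 and 0.421), and miR-125a-5p to miR-667 (0.749 and 0.276) and miR-93 (0.734 and 0.381). The miR-125a-5p values at 48 h include right sample 2, in which it was not detected. For miR-99a, whose readings at 48 h were mostly background, they were miR-211 (0.803 and -0.694) and miR-345-5p (0.593 and 0.881).

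Of 12 listed relatives, 8 had a probe. They were the cluster mates let-7a, let-7c and let-7e, the opposite strands miR-99b*, miR-125a-3p, miR-125b* and miR-125b-3p, and miR-351, which carries the miR-125 seed. At 48 h 6 were tested and 0 passed (limma adjusted p between 0.363 and 0.925; 0 unadjusted under 0.05), with 3 values above and 3 below 0 and a median log2 change of -0.30, against -0.00 over all probes. At 12 h 5 were tested and 0 passed (limma adjusted p between 0.297 and 0.846; 1 unadjusted under 0.05), all with values below 0 and a median of -0.11, against -0.05 over all.

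Cluster mates were detected unevenly at 48 h. let-7a was detected on 6 of 6 left and 6 of 6 right arrays, with raw signals of 9359 to 16330 and 586 to 19420. let-7e, between miR-99b and miR-125a, was detected on 3 of 6 left and 4 of 6 right arrays, with raw signals of 6921, 42, 3728, 35, 187 and 30 on left arrays 1 to 6 and 33, 133, 3386, 36, 3365 and 3590 on right arrays 1 to 6. let-7c, which has a copy next to miR-99a, was detected on 5 left and 6 right arrays, including 8 of the 9 that did not detect miR-99a. The same mature let-7c also comes from Mirlet7c-2 on chromosome 15, and the array cannot tell the copies apart. At 12 h let-7e and let-7c were detected on all 12 arrays. miR-351 read 289 to 7266 on left and 89 to 2162 on right arrays at 48 h, a log2 change of 1.91 ± 1.31 SE (limma adjusted p = 0.437).

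Markers of other cell types were set beside the change of miR-99b and miR-100 at 48 h. Both smooth muscle markers had values below 0, -0.31 for miR-143 and -0.21 for miR-145, and 0 of 2 passed (limma adjusted p between 0.0992 and 0.262). Their summed normalized signal was 27600 to 36300 in left and 31300 to 40500 in right samples. Of 4 leukocyte markers 3 were tested and 0 passed, with log2 changes of 1.95 for miR-223, 0.51 for miR-150 and 0.15 for miR-142-3p (limma adjusted p between 0.107 and 0.866). The miR-150 value includes right sample 4, which did not detect it, and its raw median was 2935 in left and 5305 in right carotids. miR-142-5p was detected on 0 left arrays and 1 right array. The summed leukocyte signal was 19300 to 28500 in left and 3390 to 18300 in right samples, which do not overlap. Its brightest marker in the left carotid, miR-223, had raw signals of 20226 to 28946 in left and 1127 to 12576 in right carotids. Summed erythroid signals were 22400 to 37500 and 25600 to 43200, summed endothelial ones 7010 to 22800 and 3490 to 28700, and summed striated muscle ones 1320 to 5720 and 1260 to 23900 in left and right samples. Of 4 striated muscle markers 3 were tested and 0 passed (limma adjusted p between 0.158 and 0.899), with log2 changes of -0.17 for miR-133a and 0.14 for miR-133b. The third, miR-1, was detected on 1 left and 4 right arrays, with raw signals of 28 to 323 in left and 33 to 8684 in right carotids. Its log2 change was -4.12 ± 1.53 SE, with left readings mostly at background. The remaining one, miR-206, was not tested and was detected on right array 1 alone, with a raw signal of 6700. The erythroid miR-451 and miR-486 had log2 changes of -1.63 and 0.03, and neither passed (limma adjusted p = 0.407 and 0.857). The erythroid marker probe miR-144 was detected on no array, while a second probe for this miRNA, not in the marker list, passed the detection filter at both times. The part of any of these cell types in the miR-99b and miR-100 values was not tested.

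Levels at 48 h and 12 h were set side by side after all arrays were normalized together. Each time stands in a deposited table of its own, so time and table cannot be told apart, and no test was made. miR-99b and miR-100 lay higher at 48 h in both arteries, while both miR-125 members and miR-99a lay lower. The median difference of all probes was 0.22 in left and 0.13 in right carotids. Quantile normalization of all arrays together keeps this median small, so it does not show how far the members stand out.

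For miR-99b the mean log2 levels were 14.16 ± 0.12 in the left and 13.86 ± 0.14 in the right carotid at 48 h, and 12.77 ± 0.29 and 12.75 ± 0.25 at 12 h (SD; n = 6 and 3). The arteries overlapped at 12 h but not at 48 h, and the times did not overlap in either artery. The difference of 48 h minus 12 h was 1.39 ± 0.13 SE in left and 1.10 ± 0.13 SE in right carotids. For miR-100 the means were 13.94 ± 0.10 and 13.55 ± 0.33 at 48 h and 12.74 ± 0.07 and 12.72 ± 0.05 at 12 h, in the left and right carotid, with the same order and the same overlaps.

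In miR-125a-5p and miR-125b-5p the order of the times was the opposite. The difference of 48 h minus 12 h was -2.03 ± 1.19 SE in left and -3.10 ± 1.19 SE in right carotids for miR-125a-5p, and -1.88 ± 0.43 SE and -1.14 ± 0.43 SE for miR-125b-5p. Without right sample 2 at 48 h the right value of miR-125a-5p was -1.96. Neither miRNA overlapped between the times in either artery. At 48 h the mean levels of miR-125b-5p were 12.33 ± 0.85 in the left and 13.18 ± 0.62 in the right carotid, which overlapped.

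Most miR-99a readings at 48 h were background, so its levels there have no order. miR-99a was highest in left carotids at 12 h (12.00 ± 0.47), followed by right carotids at 12 h (11.37 ± 0.17), which overlapped. Right sample 2 at 48 h, at 12.05, lay above the right samples at 12 h. Groups that did not overlap between times were common, at 43.5% of 474 probes in left carotids (22.6% above at 48 h and 20.9% below) and 26.4% in right carotids (12.7% above and 13.7% below).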

How the data were processed

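miRNAs were measured on 24 Illumina arrays. The deposited non-normalized tables, 1 per time, hold, for each probe, its mean signal (an intensity) and a detection p-value. GenomeStudio 2010.2 is named in the submitters' processing notes. No source used here says whether background was already removed. The authors also deposited processed intensity values, used as an alternative. Linear in scale, they came close to quantile-normalized signals of the same time, with a median gap of 0.476% at 48 h and 0.194% at 12 h. Column medians were 559 to 568 at 48 h and 1069 to 1079 at 12 h, and their centring and method are not stated. Table columns give artery and number, not time. Each was tied to its sample by the rank order of the processed values (rank correlation at least 0.99997, against at most 0.759 with the other time).

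For each time, neqc corrected the background and applied quantile normalization (limma 3.58.1, R 4.3.3; offset 16 before log2). Repeat arrays above a rank correlation of 0.98 were averaged. A probe was tested if detected (p under 0.05) on at least 3 arrays of 1 group. Groups were compared with two-sided limma tests (lmFit, then eBayes with a trend on intensity) at an adjusted p of 0.05. Ratios between members were compared by exact permutation over samples. The fits were also run on simulated data with known changes. Members and lists were chosen with earlier results of these data known. The miRNAs named are the members, the listed relatives and markers, and for each member the 2 probes most correlated with it at 48 h. The number of arrays limits the precision. Slide and scan were not examined. Alternatives were no background correction, 75th percentile scaling, other filters, no trend, the processed values, the replicate number as a block, every array as a sample, and leaving out samples.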

Additional observations from a re-analysis of the deposited data

Results flagged for a closer look

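Of the 10 groups formed by 5 miRNAs and 2 arteries at 48 h, 3 held a sample far from the others by Dixon's criterion, which compares the gap to the nearest sample with the whole range. Chance alone flags about 1 in 20 groups. Groups of 3 at 12 h were not examined in this way. miR-99a in left sample 5 stood above the other left samples with a ratio of 0.930, as the left array that detected it. The other left readings were at background, so the ratio says only that this array differed from them in detection. miR-100 in left sample 2 stood above the other left samples with a ratio of 0.743, and without it the log2 change was 0.32 (limma adjusted p = 0.264). miR-125a-5p in right sample 2 stood below the other right samples with a ratio of 0.676.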

How the results depend on the processing

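The count of probes past the threshold at 12 h, 2 as reported, was 1 with no background correction, 1 with no filter, 1 with the authors' processed values and 72 with every array as a sample, a setting that counts repeat arrays as replicates. In that last setting miR-99a (0.59, limma adjusted p = 0.0467) and miR-125b-5p (-0.06, adjusted p = 0.0234) passed. The count at 48 h, 12 as reported, was 25 with no filter and 7 without an intensity trend. The count for the difference between times, 1 as reported, was 2 with 75th percentile scaling, 6 with no filter, 3 with detection on every array of a group, 0 with the processed values and 17 with every array as a sample. With 1 sample left out, counts ranged from 1 to 6 at 12 h (6 without left sample 1, 1 without right sample 2 or 3), from 1 to 15 at 48 h (left sample 5 out gave 1, left sample 4 out gave 6, and right sample 2 or 6 out gave 4) and from 1 to 7 for the difference between times (4, 7 and 6 without left sample 1, 2 or 3 at 12 h, 2 without right sample 1 at 12 h or left sample 1 at 48 h), and the number of member ratios past the threshold from 0 to 2 (2 without right sample 4 at 48 h). The call of miR-99b at 48 h kept its direction throughout, at 0.30 to 0.39 with 1 sample left out. It was lost without a trend (0.36, adjusted p = 0.244) as well as with the scaling given above, and held when right samples 1 and 4, lowest in detected probes, were left out (0.41, adjusted p = 0.0401). Signs turned at 12 h under 75th percentile scaling for miR-99b (-0.01), miR-100 (0), miR-125a-5p (0.07) and miR-125b-5p (0.06), where the median of all probes moved to 0.11. They also turned with 1 sample left out for miR-99b (-0.11 to 0.17) and miR-100 (0 to 0.07) at 12 h. Without right sample 2 they turned for miR-125a-5p at 48 h (-0.07; range -0.07 to 1.59) and in the difference between times (-0.05; range -0.05 to 1.61). The cause was not tested.

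With the replicate number as a block, 0 probes passed at 12 h and 0 at 48 h (limma; miR-99b 0.36, adjusted p = 0.177), and the other calls on members were as reported. No label links the number to an animal. Deviations of same-numbered samples correlated at 0.025 to 0.060 at 12 h, where 3 of 3 left samples correlated best with their own number, and at -0.175 to 0.024 at 48 h, where 0 of 6 did.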
